A study of Mus musculus with 6 samples.

Results

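The 9 genes described here are Ifnar1, Ifnar2, Ifngr1, Ifngr2, Jak1, Tyk2, Stat2, Irf9 and Irf7, the receptors, kinases and transcription factors of interferon signalling, chosen by their symbols out of 32285 measured genes. All 9 had counts. The lumbar spinal cord of C57BL/6 mice aged 110 days, kept frozen, gave the nuclei, in 3 PHD1-/- libraries and 3 PHD1+/+ libraries. Every mouse, PHD1+/+ included, carried SOD1G93A, a mutant human superoxide dismutase transgene that causes motor neuron disease, so no group stands for healthy tissue. PHD1 is an oxygen-sensing prolyl hydroxylase made by Egln2, and the labels name the astrocytic interferon response as the question of the series.

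Interferons reach a cell through 2 kinds of receptor. Type I interferons bind the chains encoded by Ifnar1 and Ifnar2, which carry the kinases Tyk2 and Jak1. Interferon gamma binds Ifngr1, which carries Jak1, and needs Ifngr2 as its partner chain. After type I binding, Stat2 joins another STAT protein and Irf9 to form the complex that switches on interferon-stimulated genes through a DNA element called ISRE, while signals of the gamma receptor act through a second element called GAS. Irf7 is itself an interferon-stimulated gene and drives further production of type I interferon. In the central nervous system, microglia and astrocytes are known as responders to interferon.

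The genes lie on several mouse chromosomes of GRCm38 (mm10) in the GENCODE annotation. Ifnar2 (16:91372783-91405589), Ifnar1 (16:91485238-91507441) and Ifngr2 (16:91547072-91565623) sit in 1 cluster on the plus strand of chromosome 16. Ifngr1 (10:19591949-19610229) and Stat2 (10:128270559-128292849) are on the plus strand of chromosome 10, and Irf9 (14:55603571-55610030) is on that of chromosome 14. Jak1 (4:101152367-101265282), Tyk2 (9:21104068-21131243) and Irf7 (7:141262706-141266481) are on the minus strand. Over 24326 bases Tyk2 shares its position with 1700084C06Rik, an antisense gene on the other strand that is also counted, and no source used here says whether the counting used strand, so Tyk2 values are uncertain in that respect. Irf9 overlaps Rnf31 on the same strand over 123 bases.

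Promoter sequences from RefSeq (GRCm38.p6, 250 bases before to 50 after the start) were matched for all 9 genes and searched on both strands for the ISRE letters GAAANNGAAA and the GAS letters TTCNNNGAA. They are shown because the genes of this pathway can themselves be targets of it. The ISRE letters were found in the promoter of Stat2 and in no other of the 9, and the GAS letters were found, for example, in that of Ifnar2. Of 32851 promoters in the table, 3.44% hold the ISRE letters and 8.30% the GAS letters. At gene level the ISRE letters were in 23 of 44 matched interferon-stimulated genes of a list of known targets (52.3%), against 3.99% of all 27025 genes. The stretches around the matches in Stat2 and Ifnar2 follow, with the matched letters in capitals (the Stat2 match reads GAAANNGAAA on the opposite strand).
Stat2 promoter, chr10:128270251-128270310, plus strand: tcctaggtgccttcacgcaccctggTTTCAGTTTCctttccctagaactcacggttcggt
Ifnar2 promoter, chr16:91372544-91372602, plus strand: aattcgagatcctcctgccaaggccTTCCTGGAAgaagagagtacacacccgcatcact

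The kit, a droplet method, reads transcripts at their 3' ends, and a molecular tag (UMI) lets copies of 1 molecule count as 1. The kept nuclei held 14074710 to 32508245 UMIs per library in PHD1-/- and 18860819 to 30546128 in PHD1+/+. Replicate 1 of both groups stands apart: its barcodes begin with another sequence type, its median depth per nucleus was 1365 UMIs (PHD1-/-) and 1363 UMIs (PHD1+/+), where the other 4 libraries had 2290.5 to 2902, and it holds both Xist and Y-linked transcripts, so a library may hold more than 1 mouse. Its nuclei also carried more transcripts of oxidative phosphorylation genes, a list read here as a sign of RNA quality, at 2630 CPM in PHD1-/- replicate 1 and 5112 CPM in PHD1+/+ replicate 1 against 1166 to 1491 CPM in the other 4. CPM, counts per 1e+06, scales the UMIs of a gene to the total of its class and library. Cell classes were rebuilt by clustering, without the genes of the interferon lists, and each name stands for nuclei that look like that type by their markers. Nuclei left without a name made up 11.7% of PHD1-/- replicate 1 and 20.7% of PHD1+/+ replicate 1, against 1.55% to 3.60% in the other 4 libraries. They include clusters of 197 and 224 nuclei led by the astrocyte marker Gfap, so the astrocyte values do not cover those nuclei. The labels do not say how many animals made a library, so p-values measure the spread between libraries. The targeted gene Egln2 was at 9.66, 9.04 and 10.1 CPM in PHD1-/- nuclei, against 29.6, 18.8 and 16.4 CPM in PHD1+/+ nuclei, and the groups did not overlap (log2 fold change -1.17, SE 0.26, edgeR adjusted p 1.00). With the replicate number as a block, edgeR's adjusted p of Egln2 was 0.0280 in excitatory and 0.00369 in inhibitory neurons.

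Among the 7 larger classes, Ifnar1, Ifnar2 and Ifngr1 had their highest means in microglia and endothelial cells, while Ifngr2 was high in microglia alone. Ifnar2, the chain that binds type I interferon with high affinity, was at 217, 288 and 305 CPM in microglia of PHD1-/- libraries and at 215, 268 and 242 CPM in microglia of PHD1+/+ libraries. Over all 6 libraries it averaged 256 ± 37.2 CPM in microglia and 194 ± 110 CPM in endothelial cells (SD, n = 6), and these neighbours in the order did not differ beyond their spread, with microglia higher in 4 of 6 libraries. Below them came oligodendrocyte precursors at 58.3 ± 11.6 CPM, astrocytes at 43.2 ± 10.3 CPM, oligodendrocytes at 36.9 ± 4.98 CPM, excitatory neurons at 20.2 ± 1.31 CPM and inhibitory neurons at 19.5 ± 3.93 CPM. Microglia were thus 12.7-fold above excitatory neurons in Ifnar2. The steps that held in 6 of 6 libraries were from endothelial cells to precursors and from oligodendrocytes to excitatory neurons.

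Ifnar1, the second chain of the type I receptor, was the 1 receptor chain whose mean was highest in endothelial cells, at 119 ± 49.6 CPM against 94.1 ± 31.7 CPM in microglia (SD, n = 6), with endothelial cells higher in 5 of 6 libraries. In the other 5 classes it lay between 17.5 ± 2.41 CPM in inhibitory neurons and 25.3 ± 7.95 CPM in astrocytes, and no step among those 5 classes kept its order in all libraries. The step from microglia to astrocytes did so in 6 of 6. Endothelial nuclei were few, down to 10 in PHD1-/- replicate 2, so their levels carry a wide spread.

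The chains of the gamma receptor were distributed differently from each other outside microglia. Ifngr1, which binds interferon gamma, averaged 224 ± 33.8 CPM in microglia, 59.6 ± 18.0 CPM in endothelial cells and 25.4 ± 10.0 CPM in astrocytes, and was lowest in excitatory neurons at 8.83 ± 1.59 CPM (SD, n = 6). Ifngr2, the partner chain needed for signalling, averaged 212 ± 26.8 CPM in microglia, but its next class was excitatory neurons at 23.0 ± 5.20 CPM, and it was lowest in oligodendrocytes at 9.47 ± 5.83 CPM and in oligodendrocyte precursors at 8.91 ± 5.14 CPM. Relative to excitatory neurons, oligodendrocytes thus had more Ifngr1 in 6 of 6 libraries and less Ifngr2 in 6 of 6 libraries. Part of the oligodendrocyte level of Ifngr2 was in replicate 1, with 14.6 CPM in PHD1-/- replicate 1 and 18.9 CPM in PHD1+/+ replicate 1 against 5.17 to 6.96 CPM in the other 4 libraries. The 11 microglia markers summed to 298 CPM and 407 CPM in oligodendrocytes of these same 2 libraries, against 135 to 189 CPM in the other 4. The part of microglial RNA in the oligodendrocyte values of Ifngr1 and Ifngr2 was not tested.

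**Figure D1:**
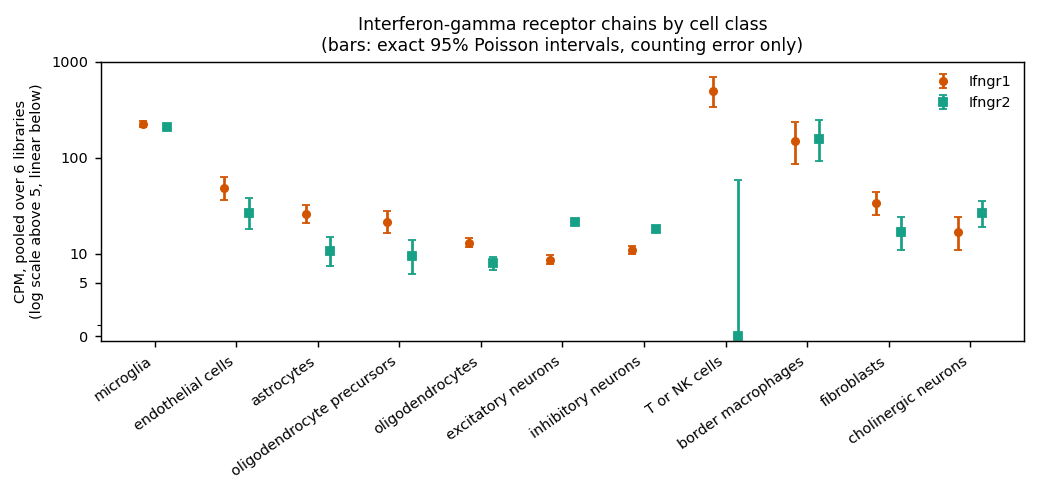
Level of the interferon-gamma receptor chains Ifngr1 and Ifngr2 in 11 cell classes, in CPM pooled over 6 libraries, on a scale that is logarithmic above 5 and linear below. Bars are exact 95% Poisson intervals and cover counting error only. Both chains are high in microglia, Ifngr1 in astrocytes, precursors and oligodendrocytes exceeds its level in excitatory neurons, and T or NK cells show 0 UMIs of Ifngr2 beside 31 of Ifngr1.

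The gamma receptor chains were also split in the small class of T or NK cells, with 6, 14 and 10 nuclei in the PHD1-/- libraries and 6, 22 and 9 in the PHD1+/+ libraries. The class held 31 UMIs of Ifngr1, or 492 CPM pooled over libraries (exact 95% Poisson interval 334 to 698 CPM, counting error only), and 0 UMIs of Ifngr2, which allows up to 58.5 CPM by the same interval. Jak1 was also high there, with 52 UMIs or 825 CPM (interval 616 to 1082 CPM). Border macrophages, another small immune class, held both gamma chains, Ifngr1 at 148 CPM (interval 86.2 to 237 CPM) and Ifngr2 at 157 CPM (interval 92.9 to 248 CPM). B cells formed a further small immune class, whose levels are not given here. These classes had too few nuclei in single libraries for a test between genotypes.

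**Figure D2:**
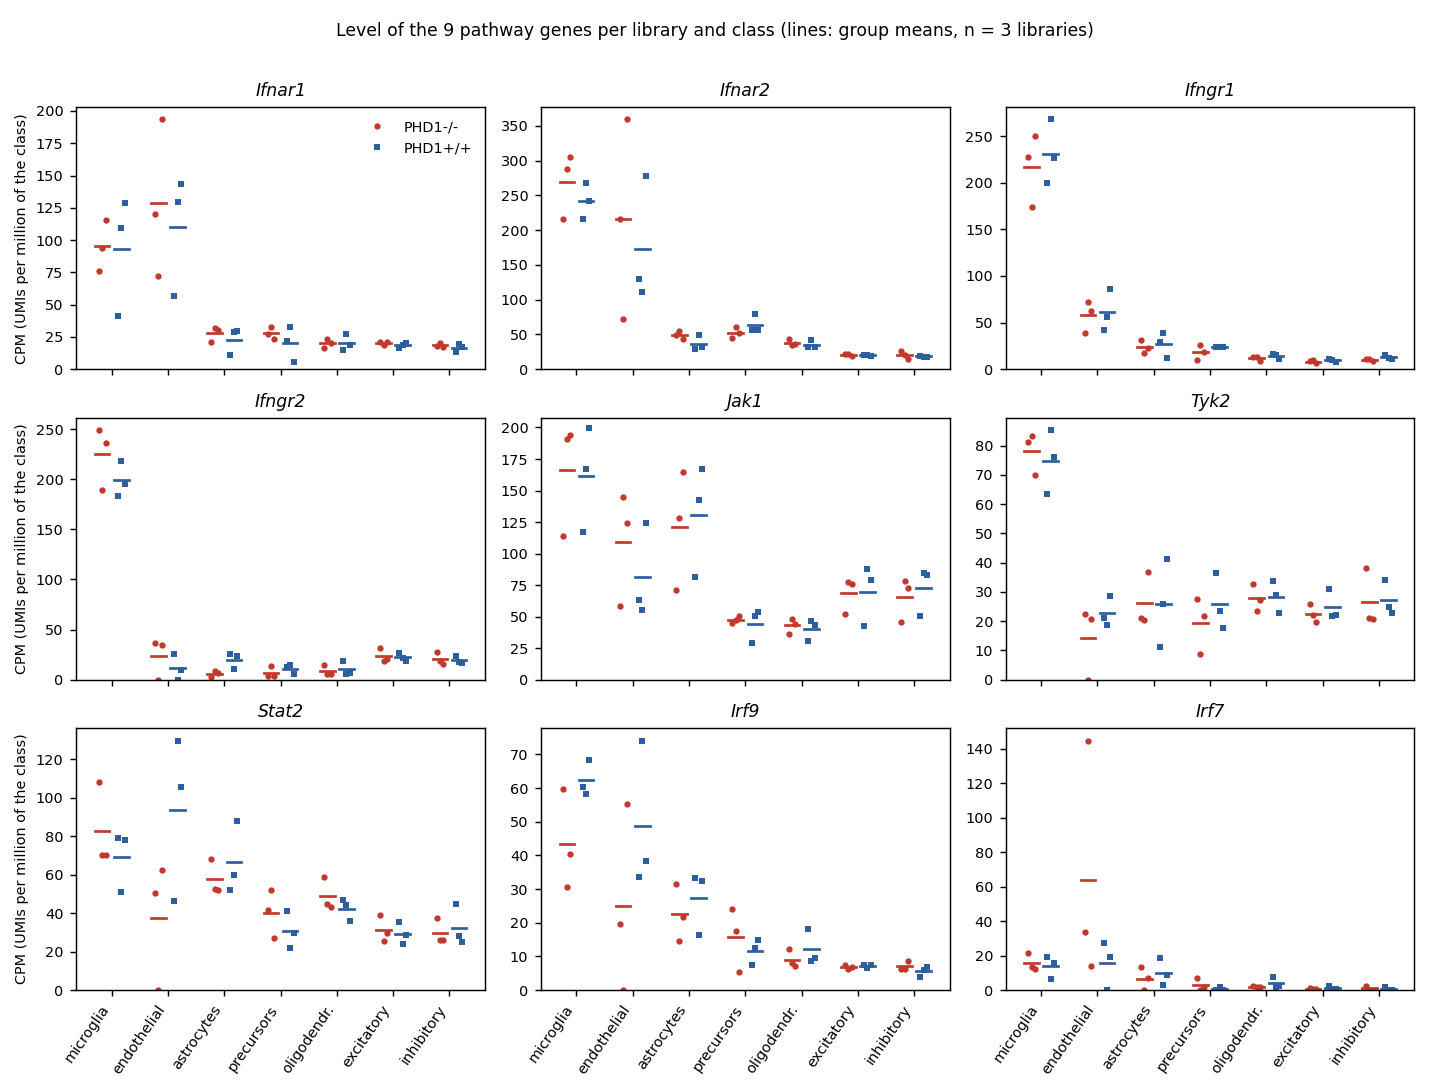
Level of each of the 9 genes in 7 cell classes, in CPM on a linear axis from 0 that differs between panels. Points are libraries, PHD1-/- left of PHD1+/+, and lines are means of 3 libraries. Over all 6 libraries microglia have the highest mean in 7 of the 9 panels and endothelial cells in those of Ifnar1 and Irf7. The genotypes overlap in every panel and class but Ifngr2 in astrocytes.

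The kinases were more evenly spread. Jak1, which serves both receptors, averaged 164 ± 39.0 CPM in microglia and 126 ± 41.2 CPM in astrocytes, with microglia higher in 6 of 6 libraries (SD, n = 6). Endothelial cells followed at 95.2 ± 40.2 CPM, excitatory neurons at 69.2 ± 17.5 CPM and inhibitory neurons at 69.1 ± 16.8 CPM, which did not differ beyond their spread, and oligodendrocytes were lowest at 41.5 ± 6.73 CPM. Cholinergic neurons, the class that holds motor neurons, had 242 UMIs of Jak1 or 150 CPM pooled over libraries (exact 95% Poisson interval 131 to 170 CPM, counting error only). This lies above the library means of both larger neuron classes, but pooling gives deeper libraries more weight, so the measures are unlike. Jak1 was low in replicate 1 of both groups over all nuclei, at 52.2 CPM in PHD1-/- replicate 1 and 59.0 CPM in PHD1+/+ replicate 1, against 77.4 to 85.4 CPM in the other 4 libraries.

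Tyk2, the kinase held by the type I receptor, averaged 76.5 ± 8.50 CPM in microglia and between 18.6 ± 9.73 CPM and 28.1 ± 4.56 CPM in the other 6 classes (SD, n = 6). The step from microglia to oligodendrocytes held in 6 of 6 libraries, and no lower step did.

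Among the transcription factors, Stat2 was the most even across classes. It averaged 76.1 ± 18.8 CPM in microglia, 65.6 ± 46.1 CPM in endothelial cells and 62.0 ± 14.3 CPM in astrocytes, which did not differ beyond their spread, and 30.2 ± 5.95 CPM in excitatory neurons (SD, n = 6). Irf9, its DNA-binding partner, fell more steeply along the order, with 52.9 ± 14.3 CPM in microglia, 24.9 ± 8.47 CPM in astrocytes, 10.6 ± 4.08 CPM in oligodendrocytes and 6.33 ± 1.57 CPM in inhibitory neurons. Irf7 was near 0 in neurons, with 26 UMIs in all excitatory neurons and 17 in all inhibitory neurons, and averaged 14.7 ± 5.36 CPM in microglia and 8.30 ± 6.78 CPM in astrocytes. Its endothelial mean of 39.8 ± 52.7 CPM rests on PHD1-/- replicate 2, where 10 nuclei gave 145 CPM, and the other 5 libraries lay between 0 and 33.6 CPM.

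Across the 54 steps between neighbouring classes (6 for each gene), 13 kept their order in all 6 libraries. Each of those had an exact two-sided sign-flip p of 0.031, as low as 6 libraries can give, and an adjusted p of 0.13 over the 54, so none passed a threshold of 0.05. The order of the classes was taken from the means of these same libraries. Agreement in all 6 libraries always gives this p, so it adds nothing to the count. As a description over 42 class-by-library sums that share libraries and depth, with no test, the genes among 11646 whose profiles were most like that of Ifngr1 were AU020206 (Pearson r 0.96), Slco2b1 (0.93) and Inpp5d (0.93). For Ifnar2 they were Xiap, Slco2b1 and H2-K1 (0.93, 0.93 and 0.92), and for Ifnar1 they were Fcho2, Tapbp and Serinc3 (0.90, 0.90 and 0.89). Those most like Ifngr2 were Tpst2, Tfe3 and Adcy7 (0.89, 0.89 and 0.87), and those most like Jak1 were Foxo3, Fbxw11 and Nfkb1 (0.86, 0.86 and 0.85). Tyk2 was most like Klhl18, its antisense neighbour 1700084C06Rik and Asah1 (0.93, 0.92 and 0.91), and Stat2 was most like Eif5, Emc3 and Rbm18 (0.94, 0.93 and 0.93). Irf9 was most like Arpc4, A930037H05Rik and Apobec3 (0.90, 0.88 and 0.88), and Irf7 was most like Ifi35, itself induced by interferon, then Vamp8 and Cdc26 (0.88, 0.86 and 0.86).

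None of the 9 genes passed the threshold between PHD1-/- and PHD1+/+ libraries in all nuclei or in any of the 7 classes fitted. In edgeR's quasi-likelihood test with Benjamini-Hochberg adjustment, 0 of the 9 genes were called in all nuclei, where 0 of 19303 genes (0%) were called. In astrocytes 6 of the 9 genes passed the filter on low counts and 0 were called, beside 0 of 6901 genes (0%), and in microglia 8 passed and 0 were called, beside 0 of 8500 genes (0%). In oligodendrocytes, precursors, excitatory neurons, inhibitory neurons and endothelial cells 8, 6, 8, 8 and 3 of the 9 passed and 0 were called, beside 0 of 12825, 7822, 15576, 15332 and 2903 genes (0% in each). At an unadjusted p under 0.05 the same test held 91, 40 and 50 genes in all nuclei, astrocytes and microglia. None of the 9 was below that value in any of the 8 comparisons of this fit. These counts were 0.47%, 0.58% and 0.59% of the genes tested, where 5% would be reached if no gene differed. A count of 0 in this fit therefore does not show that the genotypes are alike. DESeq2 called 0 genes in 7 of the 8 comparisons and 1 in astrocytes, Cxcl10. With the replicate number as a block, edgeR called 1 gene in astrocytes (Cxcl10), 58 in excitatory neurons and 95 in inhibitory neurons. It called 1 each in precursors and endothelial cells, and none of the 9 genes in these 8 comparisons. Under the block 1127, 324 and 385 genes had an unadjusted p under 0.05 in all nuclei, astrocytes and microglia. Whether any of the 9 was among those is not given here.

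**Figure D3:**
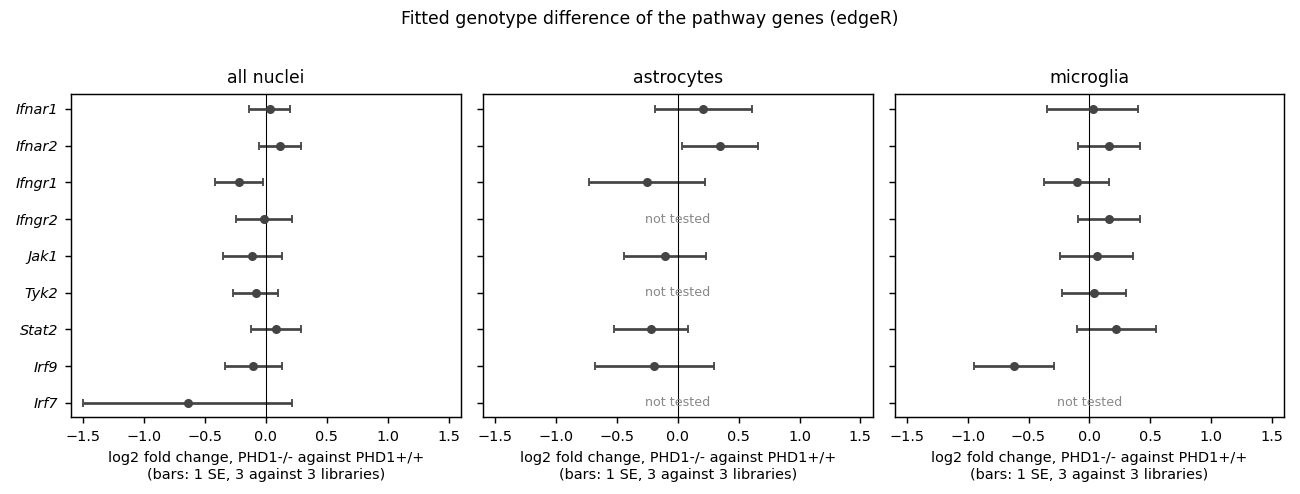
Fitted log2 fold change of each gene, PHD1-/- against PHD1+/+, in all nuclei, astrocytes and microglia, with bars of 1 SE from edgeR on 3 against 3 libraries. Genes under the filter on low counts are marked as not tested. Irf9 in microglia lies farthest from 0 among the microglial values, at -0.62, and no adjusted p is below 0.05.

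In the sum over all nuclei, where fewer cells of a type and less RNA per cell cannot be told apart, Ifngr1 was at 19.5, 17.3 and 15.8 CPM in PHD1-/- libraries, against 22.4, 22.6 and 16.4 CPM in PHD1+/+ libraries. Each PHD1-/- library was below the PHD1+/+ library of the same number, as also for Jak1 and Tyk2, while for Stat2 each was above it. The Ifngr1 groups overlapped (log2 fold change -0.22, SE 0.20, edgeR adjusted p 1.00, exact permutation p 0.30). The same order within all 3 numbers was seen for Ifngr1 in oligodendrocytes, excitatory neurons and inhibitory neurons, with log2 fold changes of -0.28, -0.22 and -0.30. It was lower in PHD1-/- within 1 of 3 numbers in astrocytes and microglia, and within 2 of 3 in precursors and endothelial cells. No share of all genes with such an order is given here, so these orders are a description. Ifnar2 had a log2 fold change of 0.11 (SE 0.17), Ifnar1 of 0.03 (SE 0.17) and Ifngr2 of -0.01 (SE 0.23). Jak1, Tyk2, Stat2 and Irf9 lay between -0.11 and 0.08, with SE from 0.18 to 0.24. Irf7 had 3.34, 1.02 and 1.40 CPM in PHD1-/- libraries against 6.63, 0.851 and 1.34 CPM in PHD1+/+ libraries, a log2 fold change of -0.64 with an SE of 0.86, and the value turned to 0.76 without PHD1+/+ replicate 1.

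For 1 of the 9 genes, Ifngr2, the partner chain of the gamma receptor, the groups did not overlap in astrocytes, at counts too low for the filter. Ifngr2 was at 2.62, 8.73 and 6.71 CPM in PHD1-/- astrocytes, from 1, 3 and 8 UMIs, against 25.9, 10.8 and 23.5 CPM in PHD1+/+ astrocytes, from 7, 8 and 8 UMIs. All PHD1-/- libraries were below all PHD1+/+ libraries (exact permutation p 0.10, two-sided, which is as low as 3 against 3 libraries can reach). Groups did not overlap in this way for 1 of the 9 genes in astrocytes, beside 5.21% of the 20106 genes with a UMI there, and for 0 of 9 in the other 7 comparisons. There the background was 4.45% in all nuclei, 5.36% in microglia, 5.13% in oligodendrocytes, 5.28% in precursors, 4.51% in excitatory neurons, 4.7% in inhibitory neurons and 4.83% in endothelial cells. Ifngr2 did not pass the filter in astrocytes, and in the fit without a filter its log2 fold change was -1.54 (SE 0.67, edgeR adjusted p 1.00). The 11 microglia markers summed to 343, 297 and 127 CPM in PHD1-/- astrocytes and to 395, 232 and 147 CPM in PHD1+/+ astrocytes, and these groups overlapped.

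In 6 further classes with at least 10 nuclei in every library, which were not fitted, 3 genes had groups that did not overlap, each in 1 class. Ifnar2 was at 56.1, 35.5 and 35.2 CPM in PHD1-/- cholinergic neurons, from 7, 13 and 8 UMIs, against 25.7, 17.3 and 13.2 CPM in PHD1+/+ cholinergic neurons, from 3, 7 and 5 UMIs. All PHD1-/- libraries were above all PHD1+/+ libraries for this 1 of the 9 genes, beside 6.96% of the genes with a UMI in that class that did not overlap in either direction. Stat2 was at 58.2, 58.1 and 66.1 CPM in PHD1-/- fibroblasts against 29.2, 38.5 and 29.1 CPM in PHD1+/+ fibroblasts, again higher throughout and 1 of 9 genes beside 5.01%. Irf7 did not overlap in neurons resolved as neither excitatory nor inhibitory, with 1 UMI in all PHD1-/- libraries and 5 in all PHD1+/+ libraries, 1 of 9 genes beside 5.51%. In Schwann, ependymal and mural cells 0 of 9 did so, beside 4.84%, 5.54% and 5.33%. As with Ifngr2, 3 libraries against 3 cannot give an exact permutation p below 0.10.

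The other receptor chains and factors overlapped between genotypes in astrocytes. Ifnar2 was at 49.8, 55.3 and 43.6 CPM in PHD1-/- astrocytes against 29.6, 48.8 and 32.3 CPM in PHD1+/+ astrocytes, higher within all 3 numbers (log2 fold change 0.35, SE 0.31, edgeR adjusted p 1.00, exact permutation p 0.20). Ifnar1 was at 21.0, 32.0 and 30.2 CPM in PHD1-/- astrocytes against 11.1, 28.4 and 29.4 CPM in PHD1+/+ astrocytes, with a log2 fold change of 0.21 (SE 0.40). Stat2 was at 68.1, 52.4 and 52.0 CPM in PHD1-/- astrocytes against 51.7, 59.6 and 88.1 CPM in PHD1+/+ astrocytes (log2 fold change -0.22, SE 0.31). Irf9 was at 31.4, 14.6 and 21.8 CPM in PHD1-/- astrocytes against 33.3, 16.3 and 32.3 CPM in PHD1+/+ astrocytes (-0.19, SE 0.49), and Jak1 and Ifngr1 had log2 fold changes of -0.11 and -0.25. Irf7 did not pass the filter in astrocytes, with 13.1, 0 and 6.71 CPM in PHD1-/- libraries and 18.5, 2.71 and 8.81 CPM in PHD1+/+ libraries.

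The targets of the pathway give the setting for these astrocyte values. The 52 measured genes of the interferon-stimulated list summed to 880, 608 and 796 CPM in PHD1-/- astrocytes, against 1364, 975 and 1271 CPM in PHD1+/+ astrocytes. The groups did not overlap, and they did not overlap without Cxcl10 either, at 872, 608 and 793 CPM in PHD1-/- and 1334, 929 and 1074 CPM in PHD1+/+. No share of other gene sums without overlap is given here, so this is a description. Of the 10 list genes that passed the filter in astrocytes 9 had a negative fold change and 0 were called by edgeR, (Cxcl10 had -4.72, SE 0.95, adjusted p 1.00), with a median log2 fold change of -0.37 beside -0.01 over all 6901 genes. Cxcl10, a chemokine induced by interferon, was at 7.86, 0 and 2.52 CPM in PHD1-/- astrocytes against 29.6, 46.1 and 197 CPM in PHD1+/+ astrocytes (DESeq2 adjusted p 0.00133, edgeR with the replicate block adjusted p 0.00239). Oxidative phosphorylation genes were negative in 18 of 18 in the same comparison, with a median of -0.52. Ribosomal protein genes were negative in 75 of 81, with a median of -0.43. The part of either in the list values was not tested. Among the 12 interferon ligand genes on the list, those other than Ifnk were nearly absent. Ifnk had 433 UMIs in all nuclei (log2 fold change 1.28, SE 1.16), Ifng had 3, Ifna2 had 1 and the others had 0.

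In microglia, the class richest in these genes, Irf9 showed the largest fitted difference of the 8 genes tested. It was at 59.6, 30.7 and 40.2 CPM in PHD1-/- microglia, against 60.2, 58.3 and 68.4 CPM in PHD1+/+ microglia. Each PHD1-/- library lay below the PHD1+/+ library of the same number, while replicate 1 of PHD1-/- lay above PHD1+/+ replicate 2, so the groups overlapped (log2 fold change -0.62, SE 0.33, edgeR adjusted p 1.00, exact permutation p 0.20). The receptor chains had smaller fitted differences. Ifngr2 was at 249, 189 and 236 CPM in PHD1-/- microglia against 184, 218 and 195 CPM in PHD1+/+ microglia (0.16, SE 0.25), and Ifngr1 at 227, 174 and 250.2 CPM in PHD1-/- microglia against 199.5, 268 and 227 CPM in PHD1+/+ microglia (-0.10, SE 0.27). Ifnar1 was at 75.8, 94.1 and 115 CPM in PHD1-/- microglia against 41.2, 109 and 129 CPM in PHD1+/+ microglia, where replicate 1 was lowest in both groups. Stat2 was at 108, 70.1 and 70.0 CPM in PHD1-/- microglia against 79.2, 50.8 and 78.1 CPM in PHD1+/+ microglia (0.22, SE 0.32), and Ifnar2, Jak1 and Tyk2 had log2 fold changes of 0.16, 0.06 and 0.04. Irf7 did not pass the filter there, with 21.7, 13.1 and 12.2 CPM in PHD1-/- libraries and 19.0, 6.48 and 15.6 CPM in PHD1+/+ libraries.

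The genotype difference of the 9 genes was also compared between classes in 1 fit of all classes and libraries. The edgeR test of an interaction between class and genotype called 0 of 14210 genes (0%), the 9 among them. An unadjusted p under 0.05 was met by 234 genes (1.65%), where 5% would be reached if no gene differed. Of the 9 genes Irf9 had the smallest unadjusted p, 0.21.

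The other parts of the pathway showed no called genes either. Of 17 further signalling genes, led in level by Irf2 and Stat3, 15 were tested in all nuclei and 0 were called by edgeR (median log2 fold change 0.01), and of 15 negative regulators, led by Pias1 and Pias2, 15 were tested and 0 called, with a median of 0.0002. The median of the 9 genes was -0.08 and that of all 19303 genes was -0.01. In astrocytes 7 genes of each list were tested, with medians of -0.19 for the signalling genes and 0.03 for the negative regulators. In microglia 12 and 9 were tested, with medians of 0.14 and -0.03. The interferon-stimulated list, led by Adar and Usp25, had 49 genes tested in all nuclei with a median of -0.12, and 30 tested in microglia with a median of 0.15.

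A cluster of 24 microglial nuclei led by Cxcl10 stood out in Stat2 and Irf7. For Irf9 and the receptors its counts were few, and their wide intervals do not settle whether they differed from other microglia. Stat2 had 21 UMIs there, or 629 CPM (exact 95% Poisson interval 389 to 961 CPM), against 63.4 CPM (55.2 to 72.5 CPM) in other microglia. Irf7 had 13 UMIs or 389 CPM (207 to 666 CPM), against 8.85 CPM (5.97 to 12.6 CPM) in other microglia, so 13 of its 43 UMIs in all microglia came from these nuclei. Irf9 had 2 UMIs or 59.9 CPM (7.25 to 216 CPM), against 49.6 CPM in other microglia, and Tyk2 had 0, which allows up to 110 CPM, against 79.4 CPM. The intervals of Ifnar1, Ifnar2, Ifngr1, Ifngr2 and Jak1 in the cluster all hold the value of the other microglia. The 9 genes and the interferon lists were kept out of the clustering. Other leading genes of this cluster, such as Ifi207 and Ifi206, were on none of the lists and could shape it. The cluster was also picked by a leading gene that is an interferon target, so these values are a description with no test. Its nuclei numbered 1, 7 and 7 in the PHD1-/- libraries and 0, 5 and 4 in the PHD1+/+ libraries, too few in each library for a test between genotypes.

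**Figure D4:**
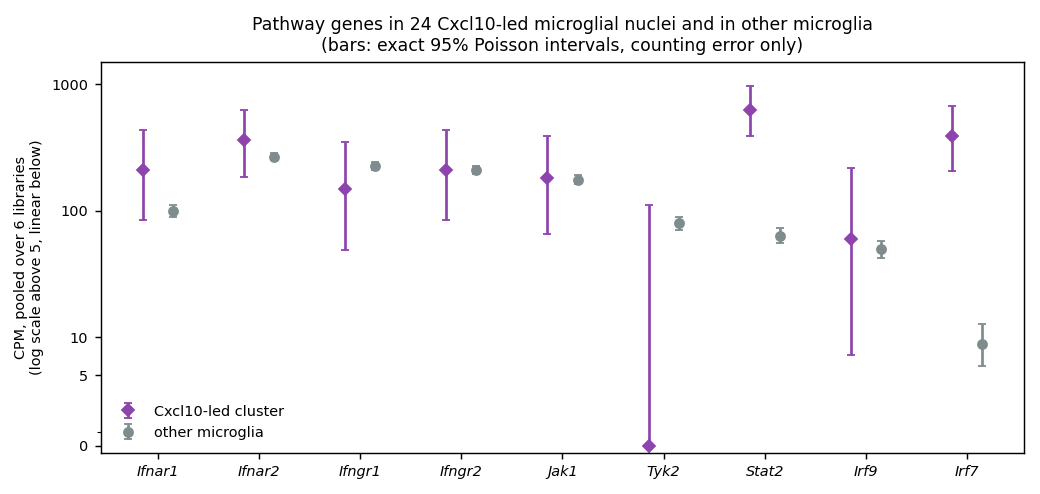
Level of the 9 genes in 24 microglial nuclei of the Cxcl10-led cluster (left of each pair) and in all other microglia, in CPM pooled over 6 libraries on a scale that is logarithmic above 5 and linear below. Bars are exact 95% Poisson intervals for counting error. Stat2 and Irf7 are the genes whose intervals do not overlap.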

How the data were processed

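Single nuclei of 3 PHD1-/- and 3 PHD1+/+ libraries were analysed. Per the file headers, the deposited values are raw UMI counts per gene and barcode from Cell Ranger 5.0.1, while Cell Ranger 5.0.2, Scanpy 1.8.1 and mm10 stand in the submitters' processing notes. For intron counting, nothing is stated in the sources used here. Barcodes needed 500 UMIs, 300 genes and under 5% mitochondrial UMIs. Scrublet doublets were removed (PHD1-/- replicates 2 and 3 lost 164 and 104 nuclei, those of PHD1+/+ lost 259 and 151), but it marked only 1 in PHD1-/- and 0 in PHD1+/+ replicate 1, where doublets remain. Libraries shared at most 86 barcodes, between both replicates numbered 1.

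Clustering in Scanpy 1.11.5 (2000 variable genes, 30 components, 15 neighbours, Leiden resolution 1.0, no integration) left out the 9 genes and the other listed genes, 123 in all. Classes were named from marker lists, with thresholds set after the clusters were seen. The 9 genes and all lists were chosen with earlier results of these data known. The rule names the 9 genes, the 2 most abundant genes of each list, list genes past the threshold, Egln2, and the 3 profiles most like each gene. Ifna2, Rsad2, 1700084C06Rik, Rnf31, Ifi207 and Ifi206 were named after their values were seen.

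Counts summed per library, over all nuclei and in 7 classes with at least 10 nuclei in each library, were tested with edgeR 4.0.16 (TMM, filterByExpr, quasi-likelihood, Benjamini-Hochberg, threshold 0.05), with DESeq2 1.42.0 beside it. The edgeR script was tested on simulated data. CPM levels use no TMM factor, fold changes do, and an adjusted p of 1.00 is rounded. Class steps used log2(CPM + 1). The labels mention littermate pairs. Libraries of equal number deviated together, with a correlation over 0.1 in each pair and comparison except 0.048 for number 3 in endothelial cells. The labels do not say that the number marks the pair. The main fit therefore had no block, and a fit with the number as a block was run beside it. Numbers 2 and 3 also correlated across numbers, in astrocytes at 0.33 (PHD1-/- 2 with PHD1+/+ 3) against 0.27 for the pair numbered 2, while number 1 correlated negatively with both. Deviations from a mean of 3 libraries sum to 0, so a number 1 that stands apart in both groups can give these signs by itself. The correlations therefore cannot tell whether the number marks the pair. The blocked fit is given where it changed a count. A further promoter match is not reported here. Alternatives were other scaling, no filter, DESeq2, the block, leaving out each library, and replicates 2 and 3 alone.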

Additional observations from a re-analysis of the deposited data

How the results depend on the processing

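None of the 9 genes was called under any alternative in any comparison, and the smallest adjusted p among them was 0.68, with the replicate number as a block in edgeR. Of 253 recomputed fold changes of the 9 genes in all nuclei, astrocytes and microglia, 221 kept their sign and 32 reversed it, and the causes were not tested. In all nuclei, leaving out 1 library at a time gave log2 fold changes for Ifnar1 from -0.068 to 0.11, Ifngr2 from -0.23 to 0.11, Jak1 from -0.26 to 0.067, Tyk2 from -0.21 to 0.0204, Stat2 from -0.068 to 0.23, Irf9 from -0.22 to 0.053 and Irf7 from -1.26 to 0.76, crossing 0 in each case. In astrocytes, leaving out 1 library at a time gave log2 fold changes for Ifnar1 from -0.0079 to 0.39, Ifngr1 from -0.57 to 0.18, Jak1 from -0.39 to 0.13, Stat2 from -0.39 to 0.011 and Irf9 from -0.57 to 0.029, crossing 0 in each case. In microglia, leaving out 1 library at a time gave log2 fold changes for Ifnar1 from -0.26 to 0.27, Ifngr1 from -0.24 to 0.043, Jak1 from -0.073 to 0.22, Tyk2 from -0.0498 to 0.13 and Stat2 from -0.0034 to 0.34, crossing 0 in each case. With replicates 2 and 3 alone, Ifnar1 had -0.026 and Irf7 0.17 in all nuclei, and Ifnar1 had -0.19 and Tyk2 -0.079 in microglia. With the replicate block Ifnar1 had -0.053 in microglia. With that block edgeR called 1 gene in astrocytes, 1 in precursors, 58 in excitatory neurons, 95 in inhibitory neurons and 1 in endothelial cells, against 0 without it. DESeq2 called 1 gene in astrocytes. Without a filter on low counts edgeR called 3 genes in astrocytes, 1 in precursors and 16 for a genotype effect that differs between classes. With replicates 2 and 3 alone it called 1 gene in excitatory and 2 in inhibitory neurons. Leaving out 1 library kept every such count at 0, and 13 to 18 of the 54 class steps then kept their order in all remaining libraries. Depth limits Irf7, which had 301 UMIs in all nuclei, and the endothelial values, where PHD1-/- replicate 2 gave 10 nuclei.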

Other observations

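Mean Cxcl10 levels lay in opposite orders in astrocytes and microglia. In astrocytes it averaged 3.46 ± 4.01 CPM in PHD1-/- and 90.8 ± 92.1 CPM in PHD1+/+, with SD over 3 libraries each and an exact permutation p of 0.10. In microglia it averaged 22.7 ± 5.56 CPM in PHD1-/- and 8.48 ± 8.57 CPM in PHD1+/+, with SD over 3 libraries each and an exact permutation p of 0.20, and the groups overlapped. Of the 54 microglial Cxcl10 UMIs, 44 came from the 24 nuclei of the Cxcl10-led cluster, and the other microglia held 2.95 CPM. The edgeR test of an interaction between class and genotype gave Cxcl10 an unadjusted p of 0.0008 and an adjusted p of 1.00. That test covers all fitted classes together, and the contrast between astrocytes and microglia was not tested. Rsad2, another interferon target, averaged 3.42 ± 2.97 CPM in PHD1-/- astrocytes and 55.3 ± 35.3 CPM in PHD1+/+ astrocytes (SD, n = 3 each). Its groups did not overlap, beside 5.21% of the 20106 genes with a UMI there. Rsad2 was named after its values were seen, so this is a description.

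Nuclei left without a class name held 7, 0 and 2 UMIs of Irf7 in PHD1-/- replicates 1 to 3 and 59, 0 and 1 in PHD1+/+ replicates 1 to 3, so 59 of the 125 Irf7 UMIs of PHD1+/+ replicate 1 lay outside the named classes.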
